A study of Mus musculus with 34 samples.

Results

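Solute carriers (Slc genes) are the large group of membrane proteins that move amino acids, sugars, nucleosides, metals, ions, vitamins and metabolites across the plasma membrane and the membranes of organelles. The genes described here are the solute carriers expressed in early mouse thymocytes. They were chosen as all genes whose symbol starts with Slc and a digit and whose mean RPKM was at least 1 in the WT DN3 or in the HOM libraries of the Lck-Cre series. RPKM is the read count scaled to the length of a gene's exons and to the counted reads of its library. The rule kept 184 of the 376 Slc genes in the table, which holds 24365 genes with settled names. Of the 184 genes, 163 passed in both groups, 15 passed in HOM only and 6 passed in WT DN3 only, and these 21 genes had to differ between those 2 groups. Slc5a9, a sodium-coupled sugar transporter, marks the group. The symbols of 5 genes (Slc2a4rg-ps, Slc4a1ap, Slc7a6os, Slc9a3r1 and Slc9a3r2) do not stand for transporters, although they match the rule.

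Developing T cells take up large neutral amino acids through a pair made of the light chain Slc7a5 and the heavy chain Slc3a2, and cationic amino acids through Slc7a1. Lactate and other monocarboxylates cross the membrane through the Slc16 family, glucose through the Slc2 family, and zinc enters the cytosol through the Slc39 family and leaves it through the Slc30 family. The Slc25 family sits mostly in the inner mitochondrial membrane, where Slc25a4 and Slc25a5 exchange ADP for ATP and Slc25a3 imports phosphate.

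The study sequenced RNA of CD4- CD8- double-negative thymocytes of C57BL6/J mice, 34 libraries in 8 groups, and asked what loss of the transcription factor Bcl11b does to them. Every mouse carried a Cre transgene, controls included: Lck-Cre, driven by the promoter of a gene of the T lineage, or Vav1-iCre, driven by that of a gene used by blood cells in general. WT, HET and HOM stand for Bcl11b +/+, flx/+ and flx/flx. YFP, a yellow fluorescent protein, served as the reporter in the sort. With Lck-Cre, the DN2 groups (4 WT and 5 HET libraries) were YFP- CD25+, the DN3 groups (5 WT and 6 HET libraries) were YFP+ CD25+, and the 5 HOM libraries were YFP+ CD25+ cells for which the labels name no stage. DN2 and DN3 are successive stages of early thymocytes, so each step from DN2 to DN3 here is also a step from reporter-negative to reporter-positive cells, and the effects of stage and reporter cannot be told apart. With Vav1-iCre (2 WT, 4 HET and 3 HOM libraries) all cells were YFP+ CD25+. The labels give no age, and whether each library is its own animal is not stated. The p-values below therefore measure only the spread between libraries, which may be technical.

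The Lck-Cre libraries held 15772841 to 43105091 counted reads. Bcl11b stood at 89.1 to 163 RPKM in the 20 libraries of the WT and HET groups and at 33.02 to 58.3 RPKM in the 5 HOM libraries; which exons the counts cover is not given in the sources used here. Thymocyte markers were high in every library, Cd3e between 228 and 716 CPM (counts scaled to the library total). Epithelial markers (Clu, Krt7, Krt8, Krt18, Krt19, Epcam and Cdh1) summed to 420 to 3469 CPM in HET DN2 libraries 1 and 2, HET DN3 libraries 2 and 3 and HOM libraries 2 and 3, against 54.3 to 117 in the other 19. Clu and the keratins made up most of these sums. Epcam did not rise with them, at 6.13 to 69.5 CPM against 12.2 to 49.4 CPM in the other 19. Which cells these transcripts came from was not tested. Of 5 mature T-cell markers, Cd4, Ccl5 and Cd40lg were higher in WT DN2 library 2 and HET DN3 library 1 than in the other 23 libraries. Cd8a and Cd8b1 were highest in WT DN2 library 2 (63.3 and 37.5 CPM), while in HET DN3 library 1 they stood at 5.47 and 9.15 CPM, below HET DN3 library 4 (13.04 and 12.1 CPM). HET DN3 library 1 also held 1349 CPM of erythroid markers, against 64.0 or less elsewhere. In such bulk samples, fewer cells of a type and less RNA per cell cannot be told apart.

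Promoter sequences are shown for 4 of the genes that carry the results: Slc16a1 and Slc25a5, which were higher at DN3, Slc25a24, which was higher in HOM, and Slc39a3, which was lower in HOM. Each is a RefSeq window of 300 bases around the annotated start, most of it upstream, 5′ to 3′ on the gene's strand, on build GRCm38.p6, while the counts were made on mm9. Capitals mark matches, on either strand, to CACGTG and CAGCTG, which are E-box letters, or to TGTGGT, the core letters bound by Runx factors.
Slc16a1, chr3:104638414-104638713, plus strand: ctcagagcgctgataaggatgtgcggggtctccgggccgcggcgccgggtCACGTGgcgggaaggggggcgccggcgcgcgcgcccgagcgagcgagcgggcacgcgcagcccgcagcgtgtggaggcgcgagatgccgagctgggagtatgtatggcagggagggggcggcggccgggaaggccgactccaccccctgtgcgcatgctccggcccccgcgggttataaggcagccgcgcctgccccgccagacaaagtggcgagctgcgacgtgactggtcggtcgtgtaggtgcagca
Slc25a5, chrX:36795347-36795646, plus strand: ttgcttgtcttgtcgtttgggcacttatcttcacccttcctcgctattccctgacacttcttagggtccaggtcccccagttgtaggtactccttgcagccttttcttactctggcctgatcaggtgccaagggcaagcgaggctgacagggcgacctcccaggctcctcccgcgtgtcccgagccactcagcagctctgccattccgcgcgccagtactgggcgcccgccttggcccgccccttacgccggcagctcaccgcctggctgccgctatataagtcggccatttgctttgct
Slc25a24, chr3:109122899-109123198, plus strand: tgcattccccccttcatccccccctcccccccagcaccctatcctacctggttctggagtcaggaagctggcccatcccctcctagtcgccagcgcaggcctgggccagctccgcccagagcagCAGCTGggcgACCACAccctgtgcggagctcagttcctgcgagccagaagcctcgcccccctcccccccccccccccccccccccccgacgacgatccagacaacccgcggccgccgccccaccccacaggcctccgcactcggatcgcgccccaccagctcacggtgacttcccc
Slc39a3, chr10:81037266-81037565, minus strand: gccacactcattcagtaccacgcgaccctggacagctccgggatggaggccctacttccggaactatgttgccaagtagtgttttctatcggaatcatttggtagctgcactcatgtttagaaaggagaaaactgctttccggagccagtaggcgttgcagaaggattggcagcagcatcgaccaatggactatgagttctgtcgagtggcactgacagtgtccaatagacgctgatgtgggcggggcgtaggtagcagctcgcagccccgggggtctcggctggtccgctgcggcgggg
The Slc16a1 window held CACGTG, the Slc25a24 window held CAGCTG and, on the other strand, TGTGGT, and the remaining pair of windows held none of these letters. The promoter table matched 139 of the 184 genes with 184 windows. CACGTG was in 14.7% of these windows and in 7.15% of all 32851 windows of the table, CAGCTG in 18.5% and 16.3%, and TGTGGT in 11.4% and 16.8%. Of the 19 windows of genes that were higher in WT DN3 than in WT DN2, 1 held CACGTG, a share of 5.26%, and of the 15 windows of lower genes 2 did, a share of 13.3%. For CAGCTG the shares were 10.53% of the windows of higher genes and 33.3% of those of lower genes, and for TGTGGT 10.53% and 6.67%, all from 1 to 5 windows. A match is a description of letters and no binding was measured.

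Expression spanned a wide range. Over the 25 Lck-Cre libraries the mean level per gene had quartiles of 4.03, 8.67 and 20.9 RPKM, and 5 genes exceeded 100 RPKM. The highest was Slc25a5, with a mean of 450.1 RPKM, followed by Slc25a3 (258), Slc29a1 (121), an equilibrative nucleoside transporter, Slc25a4 (117) and Slc9a3r1 (114), a scaffold protein and not a transporter. The leading amino acid carriers were the glutamine transporters Slc1a5 (95.7 RPKM), Slc38a2 (73.0) and Slc38a1 (65.2). Slc44a2, a choline transporter-like protein, led the vitamin, choline and heme carriers at 90.1 RPKM, and Slc39a7, which moves zinc out of the secretory pathway, led the metal carriers at 52.2 RPKM. All 184 genes together took 0.933 to 1.08% of the counted reads of a library.

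Classes followed the Slc family number in the symbol, so a class name need not fit each gene. Slc43a3 counts with the amino acid carriers, Slc16a10 with the monocarboxylate carriers and Slc9a3r1 with the ion carriers. The mitochondrial carriers were the largest class with 39 genes, followed by carriers of amino acids and peptides (29), nucleosides and nucleotide sugars (24), ions and protons (22) and metals (22). The classes of sugars and polyols (12) and of organic ions and lipids (12) were smaller, as were vitamins, choline and heme (8), phosphate and sugar phosphates (6), monocarboxylates and dicarboxylates (5) and the remaining genes (5). Libraries of a group differed little for most genes: among genes with at least 5 RPKM, the median coefficient of variation was 8.50% in WT DN3, 9.36% in WT DN2, 13.1% in HOM, 14.3% in HET DN2 and 14.7% in HET DN3. Slc15a2, a proton-coupled peptide transporter, was an exception. Its levels in the WT DN2 libraries were 2.73, 5.68, 0.0089 and 19.8 RPKM, and in the HET DN2 libraries 2.54, 0.425, 0.118, 20.4 and 3.05 RPKM. Libraries of 1 genotype and stage thus ranged from near 0 to about 20 RPKM for this gene.

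From DN2 to DN3 some carriers for amino acids, monocarboxylates, folate and mitochondrial nucleotides were higher. Others were lower, amino acid carriers among them, and the share of the 184 genes called was near that of all genes. In WT, 36 of the 184 genes passed the test, 19 higher and 17 lower at DN3, which is 19.6% of them against 21.3% of all 12218 genes tested, of which 11.2% were higher and 10.1% lower (edgeR's quasi-likelihood test, adjusted p under 0.05 over all genes tested). In HET, 24 passed, 15 higher and 9 lower, which is 13.04% against 10.7% of all genes, of which 5.93% were higher and 4.8% lower. The median log2 fold change of the 184 genes was -0.01 in WT and -0.03 in HET, beside -0.04 and -0.01 over all genes tested. WT DN3 libraries had also served to choose the genes, while no HET DN3 or HET DN2 library had. WT DN3 libraries 2, 3 and 4 deviated most like the WT DN2 library of the same number, while WT DN3 library 1 did not. With the number as a block 91 of the 184 genes passed in WT, 50 higher and 41 lower, against 47.9% of all genes in that fit. With only the groups compared in the fit, 71 passed in WT and 9 in HET. With the number as a block 2 passed in HET, where the numbers did not pair all libraries. For these counts of 71, 9 and 2 the share of all genes in the same fit is not given here. They are therefore not read as a result about the carriers. The early-stage markers Kit and Cpa3 were lower at DN3 in both genotypes. Their sum was 133 to 257 CPM at DN2 and 33.9 to 118 at DN3. The 118 CPM came from WT DN3 library 5, while the other WT DN3 libraries held 39.4 to 44.5. In that library Cpa3 stood at 37.8 CPM against 1.16 to 1.46 in the others, and Kit at 80.4 against 38.2 to 43.1. HET DN3 library 3 had the next highest DN3 sum, at 101.4 CPM. The part of WT DN3 library 5 in the WT step was tested only by leaving single libraries out.

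Of the 29 amino acid and peptide carriers, 5 rose and 2 fell in WT, while 2 rose and 3 fell in HET. These are 24.1% and 17.2% of the class, beside 21.3% and 10.7% of all genes. The amino acid carriers Slc7a5, Slc3a2 and Slc7a1 rose in WT. Slc7a5 stood at 43.9, 30.7, 39.7 and 35.6 RPKM in WT DN2 and at 80.99, 78.3, 72.7, 66.8 and 70.7 RPKM in WT DN3. The groups did not overlap, and Slc7a5 rose 2.06-fold (log2 fold change 1.04, SE 0.13, adjusted p = 3.08e-05). In HET it stood at 45.2, 29.8, 46.6, 41.2 and 43.95 RPKM at DN2 and had a lowest, median and highest level of 49.7, 56.5 and 75.6 RPKM at DN3, again without overlap, and rose 1.43-fold (log2 fold change 0.51, SE 0.12, adjusted p = 0.0079). Its heavy chain Slc3a2 rose from 30.9 ± 0.963 (SD, n = 4) to 48.2 ± 2.69 RPKM (SD, n = 5) in WT (log2 fold change 0.70, SE 0.12, adjusted p = 0.000247, edgeR). In HET, Slc3a2 had a log2 fold change of 0.31 (SE 0.10, adjusted p = 0.0565, edgeR), and 2 of the 5 HET DN2 libraries, those with epithelial transcripts, held 41.9 and 47.3 RPKM, within the range of the HET DN3 libraries (39.9 to 58.3 RPKM). The cationic carrier Slc7a1 rose in both, from 14.7 ± 1.15 to 24.7 ± 2.56 RPKM in WT (log2 fold change 0.81, SE 0.12, adjusted p = 9.07e-05, edgeR) and with a log2 fold change of 0.56 (SE 0.11, adjusted p = 0.00216, edgeR) in HET. Slc38a2, a sodium-coupled neutral amino acid transporter, fell in both steps, from 83.5 ± 5.82 to 64.4 ± 4.003 RPKM in WT and by 0.23 on the log2 scale in HET. The lysosomal peptide and histidine transporter Slc15a4 and the purine nucleobase transporter Slc43a3 fell in HET, by 0.51 and 0.50 on the log2 scale.

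Of the 5 monocarboxylate and dicarboxylate carriers, 3 rose in both steps, beside 11.2% of all genes in the WT step and 5.93% in the HET step. The lactate and pyruvate transporter Slc16a1 stood at 36.2, 31.4, 32.5 and 30.4 RPKM in WT DN2 and at 63.3, 64.5, 51.6, 51.1 and 49.9 RPKM in WT DN3, without overlap, a rise of 1.79-fold (log2 fold change 0.84, SE 0.14, adjusted p = 0.00024, edgeR). In HET it rose 1.52-fold (log2 fold change 0.60, SE 0.12, adjusted p = 0.00339, edgeR), and all 6 HET DN3 libraries lay above the 5 HET DN2 libraries. Slc16a10, which carries aromatic amino acids, and Slc16a5 rose as well, Slc16a10 by 0.42 and 0.51 and Slc16a5 by 0.67 and 0.63 on the log2 scale in WT and HET. Slc16a6 fell in HET from 13.9 ± 1.97 (SD, n = 5) to 10.2 ± 1.29 RPKM (SD, n = 6; log2 fold change -0.44, SE 0.11, adjusted p = 0.0124, edgeR).

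**Figure D1:**
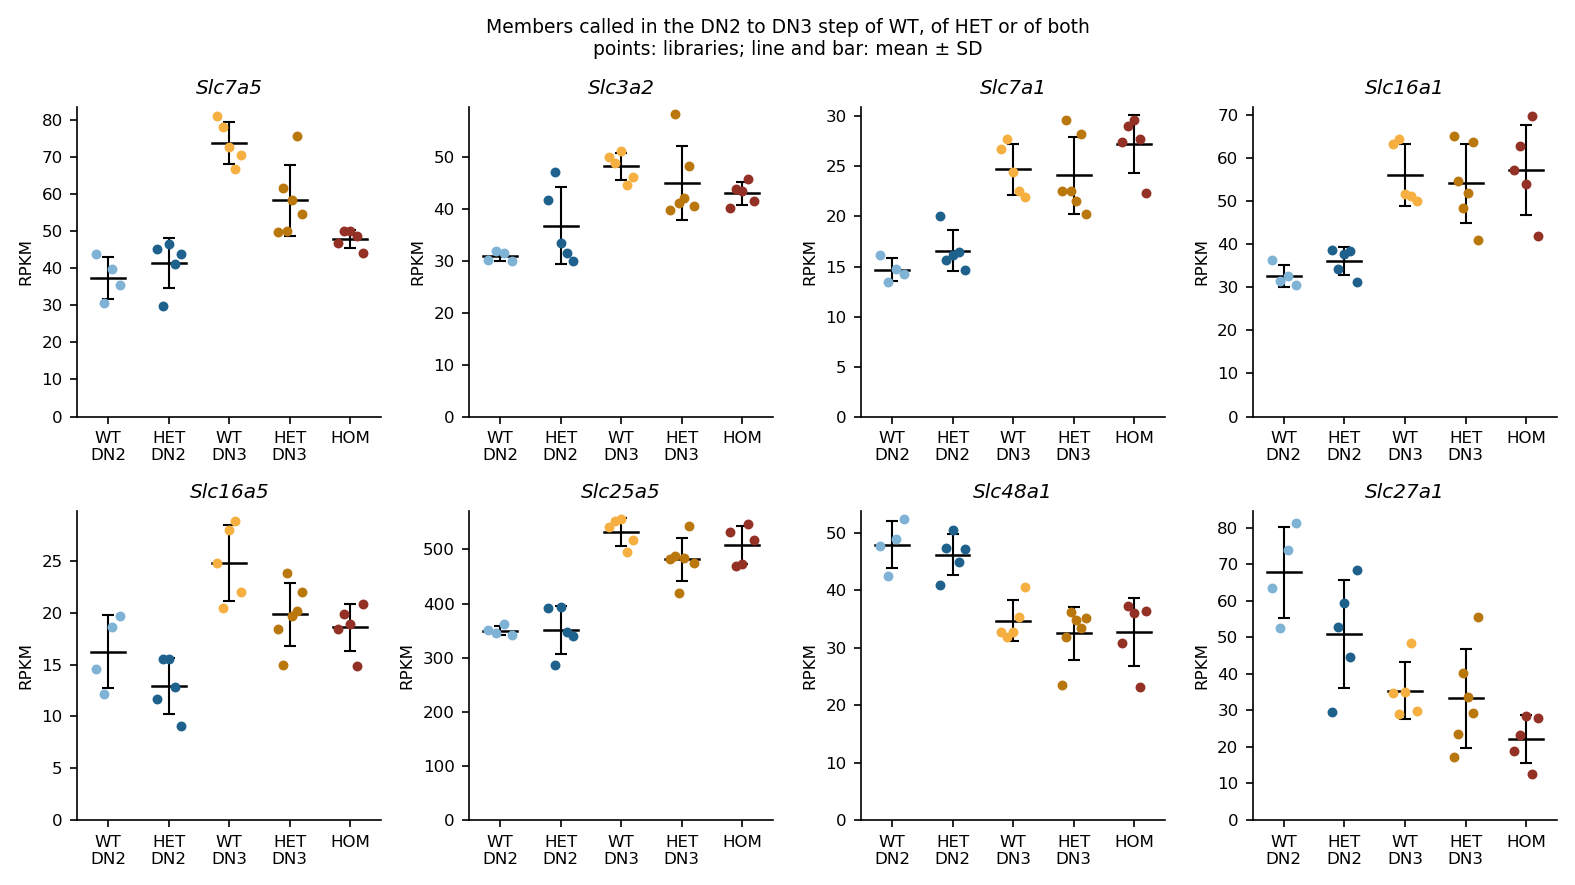
RPKM (linear axes from 0) of 8 solute carriers in the 25 Lck-Cre libraries, by group; points are libraries, lines and bars are mean ± SD. Slc7a5, Slc7a1, Slc16a1 and Slc25a5 lie higher in the DN3 libraries of WT and HET than in the DN2 libraries of the same genotype, Slc48a1 lies lower, and Slc3a2 in HET and Slc27a1 in HET overlap between stages.

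Among the mitochondrial carriers, 7 rose and 5 fell in WT, and 6 rose and 2 fell in HET. These are 30.8% and 20.5% of the class, beside 21.3% and 10.7% of all genes. The abundant ADP/ATP carrier Slc25a5 stood at 350.4, 346, 363 and 341 RPKM in WT DN2 and at 541, 553, 556, 495 and 517 RPKM in WT DN3, a rise of 1.59-fold without overlap (log2 fold change 0.67, SE 0.09, adjusted p = 4.91e-05, edgeR), and rose 1.39-fold in HET. Its paralog Slc25a4 and the phosphate carrier Slc25a3 also rose in both. Slc25a5 has processed pseudogenes in the genome and a closely similar coding sequence to Slc25a4, and how reads shared between such copies were assigned is not given in the sources used here, so the split between them is uncertain. The mitochondrial folate carrier Slc25a32 and the reduced folate carrier Slc19a1 of the plasma membrane rose together in both steps, Slc19a1 from 16.4 ± 1.66 to 25.4 ± 2.16 RPKM in WT (log2 fold change 0.69, SE 0.11, adjusted p = 0.000156, edgeR). Slc25a27, an uncoupling protein family member, fell in both, and Slc25a24, an ATP-Mg/phosphate carrier, fell in WT from 4.14 ± 0.773 to 1.22 ± 0.837 RPKM (log2 fold change -1.68, SE 0.42, adjusted p = 0.00696, edgeR).

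Lower levels at DN3 were spread over several classes. The heme transporter Slc48a1 stood at 47.6, 42.5, 48.99 and 52.4 RPKM in WT DN2 and at 32.8, 31.9, 32.7, 35.3 and 40.6 RPKM in WT DN3, and fell in both genotypes without overlap (log2 fold change -0.40 in WT and -0.49 in HET, adjusted p = 0.0225 and 0.00672, edgeR). The sodium-proton exchanger Slc9a2 fell from 2.21 ± 0.081 to 0.384 ± 0.276 RPKM in WT (log2 fold change -2.44, SE 0.56, adjusted p = 0.00383, edgeR) and from 2.36 ± 1.03 to 0.58 ± 0.314 RPKM in HET. The calls of Slc48a1 in WT and of Slc27a1 did not hold without some single WT libraries. The fatty acid transport protein Slc27a1 fell in WT, from 67.8 ± 12.4 to 35.3 ± 7.78 RPKM (log2 fold change -0.88, SE 0.28, adjusted p = 0.0275, edgeR). Leaving out any 1 of 6 of the 9 WT libraries gave an adjusted p of 0.0519 to 0.0891 for Slc27a1 and of 0.0508 to 0.0933 for Slc48a1 (edgeR). These were WT DN2 libraries 3 and 4 and WT DN3 libraries 1, 2, 3 and 5 for Slc27a1, and WT DN2 libraries 1, 3 and 4 and WT DN3 libraries 1, 2 and 3 for Slc48a1. None of the 22 metal carriers passed in either step in the fit without a block, beside 21.3% of all genes in WT and 10.7% in HET. At an unadjusted p under 0.05 (edgeR) there were 4 each in WT and in HET, beside 34.2% and 26.0% of all genes.

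Slc5a9 itself followed the stage. Its level was 12, 8.12, 14.3 and 9.01 RPKM in WT DN2 and 24.5, 27.7, 30.7, 32.01 and 18.5 RPKM in WT DN3. In HET it was 9.89, 5.64, 7.005, 9.22 and 6.01 RPKM at DN2 and had a lowest, median and highest level of 11.5, 16.9 and 24.9 RPKM at DN3. Neither pair of groups overlapped, and Slc5a9 rose 2.56-fold in WT (log2 fold change 1.36, SE 0.38, adjusted p = 0.014, edgeR) and 2.37-fold in HET (log2 fold change 1.24, SE 0.34, adjusted p = 0.0219, edgeR). Leaving out HET DN2 library 2 or 5 gave an adjusted p of 0.0525 or 0.0542 for the HET step, and leaving out the libraries with epithelial transcripts gave 0.0661 with a log2 fold change of 1.40 (edgeR).

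Both steps shared 12 of the genes that were higher (63.2% of the 19 in WT and 80.0% of the 15 in HET) and 5 of those that were lower (29.4% of 17 and 55.6% of 9). The shared higher genes were Slc5a9, Slc7a1, Slc7a5, Slc16a1, Slc16a5, Slc16a10, Slc19a1, Slc25a3, Slc25a4, Slc25a5, Slc25a32 and Slc35f2, and the shared lower ones were Slc9a2, Slc25a27, Slc35e3, Slc38a2 and Slc48a1. Across all 184 genes the log2 fold changes of the WT and HET steps, which use different libraries, had a Pearson r of 0.621 and a Spearman rho of 0.616, and 128 had the same sign; genes are not independent replicates. Without the libraries that hold epithelial or mature T-cell transcripts, 14 higher and 2 lower genes were shared, and the HET calls of Slc16a1, Slc38a2, Slc25a27 and Slc35e3 did not hold (adjusted p = 0.061, 0.0633, 0.176 and 0.228, edgeR). The HET call of Slc25a27 did not hold without HET DN2 library 2 (adjusted p = 0.0579, edgeR). That of Slc35e3 was lost when any 1 of HET DN2 libraries 2, 3 and 5 or HET DN3 libraries 1, 2, 4 and 5 was left out, with an adjusted p of 0.054 to 0.0814 (edgeR). The HET calls of Slc5a9, Slc7a1, Slc16a1, Slc16a5, Slc16a10, Slc25a32 and Slc35f2 were lost with the replicate number as a block. Their adjusted p was 0.0521 to 0.127 (edgeR). The block also lost those of Slc25a27, Slc35e3 and Slc38a2 (0.103 to 0.18, edgeR), while that of Slc48a1 held. With only the groups compared in the fit, those of Slc25a27, Slc25a32, Slc35e3, Slc35f2 and Slc38a2 did not hold (0.0549 to 0.0976, edgeR). The difference between the steps was tested directly, and it passed for none of the 184 genes in edgeR, DESeq2 or limma, while 11 had an unadjusted p under 0.05 beside 8.94% of all genes, and 0.0% of all genes passed. The lowest unadjusted p belonged to Slc7a5, whose step was smaller in HET by 0.53 on the log2 scale (SE 0.18, adjusted p = 0.496, edgeR).

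**Figure D2:**
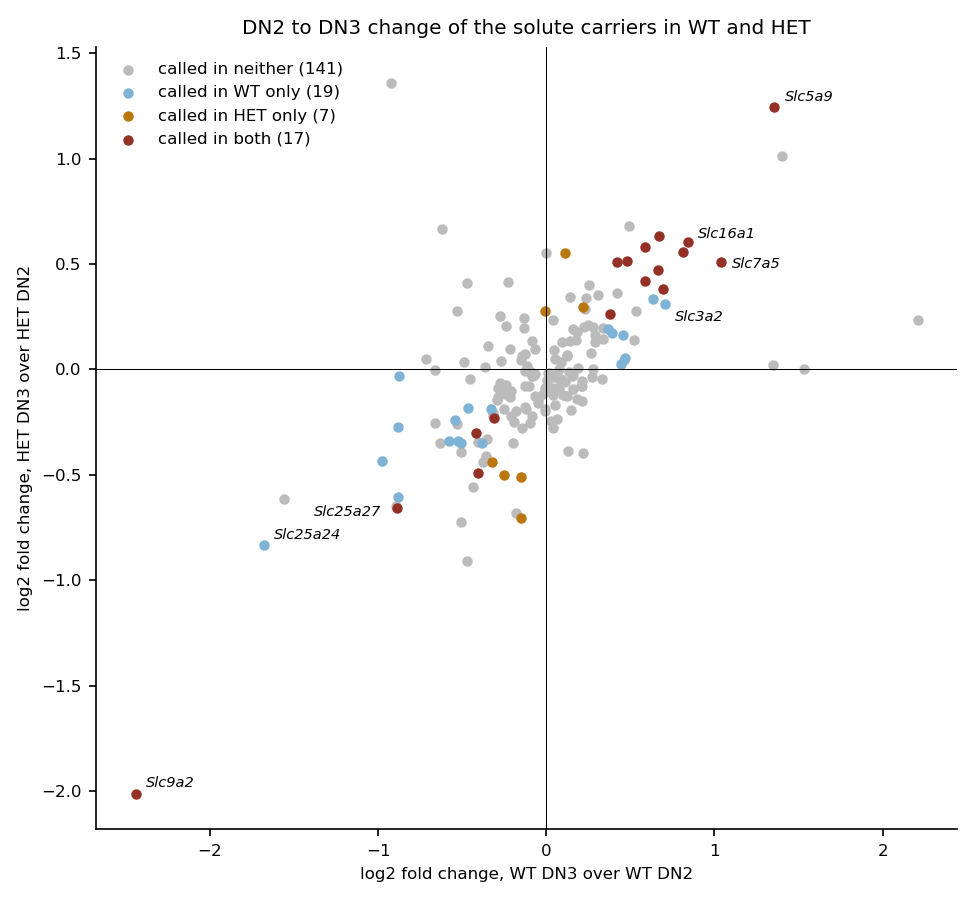
Log2 fold change of the 184 solute carriers from DN2 to DN3 in WT (horizontal axis) and in HET (vertical axis); colours give the genes called in neither step, in 1 or in both. The 17 genes called in both lie in the quadrants of equal sign, with Slc5a9 at the top right and the lowly expressed Slc9a2 at the bottom left.

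Few genes were called between HET and WT. At DN2, in reporter-negative cells, none of the 184 genes passed between HET and WT in edgeR or limma and 2 passed in DESeq2, with 18 at an unadjusted p under 0.05 in edgeR beside 7.44% of all genes, and 0.0% of all genes passed the adjusted test. At DN3, 7 of the 184 passed, 4 higher and 3 lower in HET, which is 3.80% of them against 7.31% of all genes, of which 4.17% were higher and 3.13% lower. The lower genes were the zinc importer Slc39a3, Slc7a5 and Slc35a4. The call of Slc7a5 was lost in 19 of 21 alternatives, with an adjusted p of 0.0515 to 0.236 (edgeR and, in those with log2 values, limma). Slc39a3 had a lowest, median and highest level of 7.28, 10.3 and 12.6 RPKM in HET DN3, against 12.5, 12.3, 14.3, 15.3 and 13.2 RPKM in WT DN3, with overlap (log2 fold change -0.46, SE 0.11, adjusted p = 0.0302, edgeR). The higher genes were the pyrimidine nucleotide carrier Slc25a36, the sodium bicarbonate cotransporter Slc4a7, Slc25a24 and Slc35f5, of which the last pair were singled out only after their values were seen. Slc25a36 stood at 12.2, 15.7 and 17.7 RPKM (lowest, median, highest) in HET DN3 and at 11.4, 11.9, 8.61, 11.3 and 8.51 RPKM in WT DN3, without overlap (log2 fold change 0.55, SE 0.11, adjusted p = 0.0145, edgeR). Slc35f5 was above 3 RPKM only in HET DN3 libraries 2 and 3, the pair with epithelial transcripts (4.099 and 3.23 RPKM), among the 6 of that group. Of the same 21 alternatives, 8 lost the call of Slc39a3, 8 that of Slc35a4, 9 that of Slc4a7 and 3 that of Slc25a36. The count of 7 depended on single libraries. It was 0 without WT DN3 library 3, 1 without WT DN3 library 4 or HET DN3 library 1, 2 without WT DN3 library 5 or HET DN3 library 3, 3 without WT DN3 library 1, 14 without HET DN3 library 6 and 22 without HET DN3 library 5. Without the epithelial libraries it was 2, and without those and the mature T-cell libraries it was 0. The shares of all genes called in these fits are not given here.

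HOM and HET DN3 libraries differed in many of the genes. Between HOM and HET DN3, which share the YFP+ CD25+ gate, 53 of the 184 genes passed, 23 higher and 30 lower in HOM, which is 28.8% of them against 24.9% of all genes tested, of which 12.3% were higher and 12.6% lower. HOM libraries also served to choose the genes, and 8 of the 53 had passed the level threshold in 1 group only, 5 in HOM, all higher in HOM, and 3 in WT DN3, all lower. The median log2 fold change was -0.04, beside -0.01 over all genes. At least 2-fold differences were called for 17 genes, and 7.25% of all genes met that mark. Without the epithelial libraries 54 passed, 29 higher and 25 lower, and the share of all genes in that fit is not given here. The cells also differed in stage markers. Kit and Cpa3 were both higher in HOM, at a sum of 212 to 416 CPM, and 5 of the 10 thymocyte markers were lower and none higher, Cd3e among them. Of the other marker lists, 1 of 7 epithelial (Epcam), 1 of 6 myeloid (Lyz2) and 1 of 2 B-cell markers tested (Cd79b) were lower, none of 5 mature T-cell and none of 5 erythroid markers passed, and no mast-cell marker passed the filter on low values. Their part in the differences below was not tested.

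The largest fall among the genes above 5 RPKM was that of Slc5a9. It stood at 1.06, 2.69, 2.29, 0.687 and 5.28 RPKM in the HOM libraries, below the lowest HET DN3 library (11.5 RPKM) and also below every DN2 library of either genotype, of which the lowest held 5.64 RPKM. Its level was 7.24-fold lower than in HET DN3 (log2 fold change -2.86, SE 0.37, adjusted p = 3.46e-06, edgeR). The sugar and polyol carriers as a class moved in both directions, with 4 higher and 3 lower of 12, 58.3% beside 24.9% of all genes. The 3 lower genes were Slc5a9 itself, Slc5a3 and Slc2a4rg-ps, which is not a transporter. The inositol transporter Slc5a3 fell from 5.66 ± 1.802 (SD, n = 6) to 1.93 ± 0.573 RPKM (SD, n = 5; log2 fold change -1.54, SE 0.26, adjusted p = 0.000111, edgeR).

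Slc45a3, a member of the sugar and proton cotransporter family also known as prostein, showed the opposite pattern. Its level was 26.3, 22.6, 23.4, 14.6 and 23.01 RPKM in HOM, with a lowest, median and highest of 2.55, 3.96 and 6.396 RPKM in HET DN3, and no library of any other Lck-Cre group exceeded 6.396 RPKM. It was 5.404-fold higher in HOM than in HET DN3 (log2 fold change 2.43, SE 0.27, adjusted p = 3.91e-07, edgeR). Its relative Slc45a4 rose 1.49-fold. The glucose transporter Slc2a3 stood at 10.98, 11.3, 11.8, 22.1 and 10.6 RPKM in HOM and at 6.19, 7.34 and 8.42 RPKM (lowest, median, highest) in HET DN3, without overlap, HOM library 4 lying apart from the other 4 (log2 fold change 0.91, SE 0.17, adjusted p = 0.000406, edgeR). The other widely used glucose transporter, Slc2a1, was highest in the same HOM library at 25.6 RPKM and did not pass (log2 fold change 0.41, SE 0.23, adjusted p = 0.199, edgeR).

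**Figure D3:**
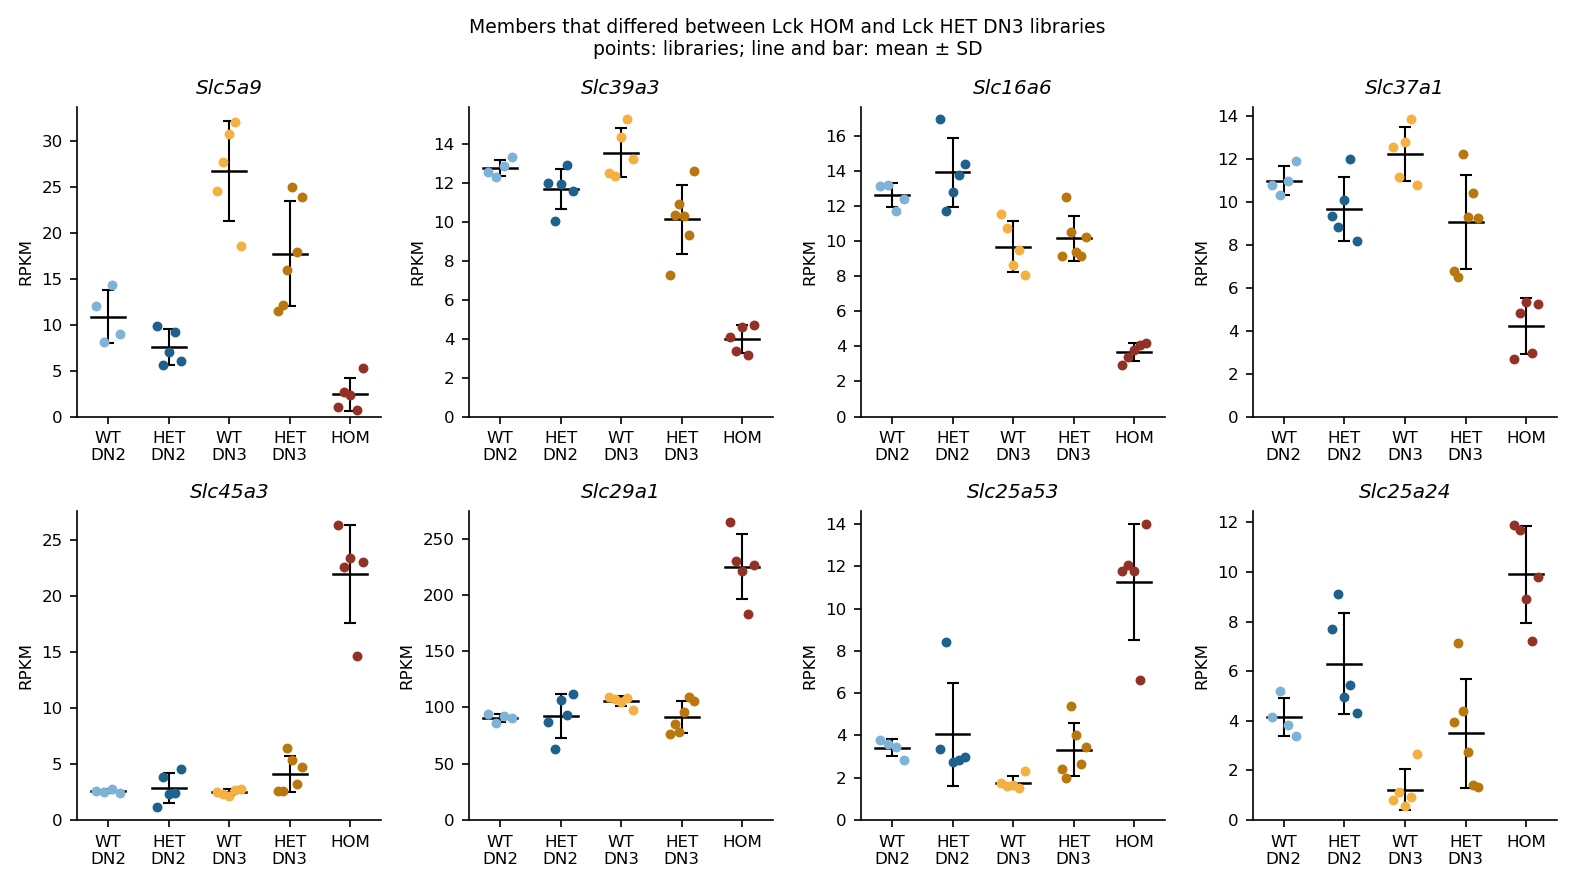
RPKM (linear axes from 0) of 8 solute carriers in the 25 Lck-Cre libraries, by group; points are libraries, lines and bars are mean ± SD. The 5 HOM libraries lie below all other libraries for Slc5a9, Slc39a3, Slc16a6 and Slc37a1 and above all others for Slc45a3 and Slc29a1; for Slc25a53 and Slc25a24, HOM overlaps HET DN2.

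Among the nucleoside and nucleotide sugar carriers, 4 of 24 were higher and none lower in HOM, 16.7% of the class beside 24.9% of all genes. At an unadjusted p under 0.05 (edgeR) there were 8, beside 36.2% of all genes. Slc29a1 stood at 265, 230.0, 221, 183 and 227 RPKM in HOM and at 76.2, 90.6 and 109 RPKM (lowest, median, highest) in HET DN3. All 5 HOM libraries lay above all 20 others, and the rise was 2.49-fold (log2 fold change 1.32, SE 0.12, adjusted p = 4.09e-08, edgeR). The lysosomal and mitochondrial nucleoside transporter Slc29a3 rose 1.304-fold, and Slc35f2 and Slc35g1, both of the nucleotide sugar transporter superfamily, rose 1.38-fold and 1.68-fold, with an adjusted p of 0.0677 for Slc35g1 without HOM library 4 (edgeR). With the replicate number as a block, the adjusted p of Slc35g1 was 0.0753 (edgeR).

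Of the 22 carriers of zinc and other metals, 5 were lower and 1 was higher in HOM, 27.3% of the class and near the 24.9% of all genes. Slc39a3 stood at 4.09, 3.36, 4.604, 3.14 and 4.68 RPKM in HOM and at 7.28, 10.3 and 12.6 RPKM (lowest, median, highest) in HET DN3, without overlap, a fall of 2.51-fold (log2 fold change -1.33, SE 0.12, adjusted p = 2.62e-08, edgeR). The importers Slc39a6, Slc39a13 and Slc39a14 and the exporter Slc30a4 fell by 0.43, 0.81, 0.62 and 0.81 on the log2 scale, while Slc39a1 rose by 0.20 with an adjusted p of 0.0499 (edgeR). Slc30a4 stood at 8.43 and 7.15 RPKM in HET DN3 libraries 2 and 3, which hold epithelial transcripts, against 3.97, 4.89, 4.898 and 4.93 RPKM in the other 4 and 3.25, 3.77, 3.55, 2.999 and 2.53 RPKM in HOM. Slc39a1, Slc39a13 and Slc39a14, like Slc2a1, Slc29a3 and Slc37a4, were named after their values were seen. In the 6-gene class of phosphate and sugar phosphate carriers 4 were lower and 1 higher, 83.3% of the class beside 24.9% of all genes. Of the lower genes, 1 (Slc37a2) had passed the level threshold through WT DN3 only. Slc37a1, a glucose-6-phosphate antiporter of the endoplasmic reticulum, fell from 9.06 ± 2.19 to 4.204 ± 1.29 RPKM (log2 fold change -1.09, SE 0.17, adjusted p = 6.03e-05, edgeR), the phosphate importers Slc20a1 and Slc20a2 fell by 0.37 and 0.44 on the log2 scale, and Slc37a4, the glucose-6-phosphate translocase, rose 1.44-fold.

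Mitochondrial carriers moved both ways, with 7 higher and 5 lower of 39, 30.8% of the class beside 24.9% of all genes. Of the higher genes, 1 (Slc25a43) had passed the level threshold through HOM only. Slc25a24 stood at 11.9, 11.7, 8.92, 7.201 and 9.795 RPKM in HOM and at 1.34, 3.33 and 7.14 RPKM (lowest, median, highest) in HET DN3, a rise of 2.87-fold (log2 fold change 1.52, SE 0.38, adjusted p = 0.0042, edgeR). All HOM libraries lay above all HET DN3 libraries. Slc25a53 rose 3.44-fold, from 3.32 ± 1.26 to 11.2 ± 2.75 RPKM (log2 fold change 1.78, SE 0.27, adjusted p = 2.97e-05, edgeR). The ATP-Mg/phosphate carrier Slc25a23 was among those that fell, by 0.48 on the log2 scale.

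Of the other classes, the organic ion and lipid carriers had 4 lower and 2 higher of 12, 50.0% of the class beside 24.9% of all genes. Of these, 1 lower gene (Slc22a17) had passed the level threshold through WT DN3 only and 1 higher gene (Slc51a) through HOM only, which leaves 3 lower and 1 higher among those that passed in both. Slc22a17, known as a receptor for lipocalin, stood at 0.371, 0.436, 0.787, 0.196 and 1.395 RPKM in HOM and at 2.18, 4.42 and 6.83 RPKM (lowest, median, highest) in HET DN3 (log2 fold change -2.81, SE 0.40). Because it passed through WT DN3 only, with its HOM mean below the threshold, its lower level in HOM is given as a description. The organic cation transporter Slc22a3 rose 1.55-fold, with an adjusted p of 0.0859 without the epithelial and mature T-cell libraries (edgeR). The ion and proton carriers had 3 lower of 22, 13.6% of the class beside 24.9% of all genes. Among the lower was the potassium-chloride cotransporter Slc12a7, which fell from 36.9 ± 9.82 to 21.1 ± 5.15 RPKM (log2 fold change -0.78, SE 0.17, adjusted p = 0.00179, edgeR). The anion exchanger Slc26a11, of the sulfate transporter family, fell from 5.07 ± 2.63 to 2.75 ± 0.80 RPKM (log2 fold change -0.86, SE 0.26, adjusted p = 0.0178, edgeR), with an adjusted p of 0.0568 without HET DN3 library 1 and 0.0583 without HOM library 1. The adjusted p of Slc26a11 was 0.102 with only the groups compared in the fit and 0.281 with the replicate number as a block (edgeR). With the block that of Slc12a7 was 0.0588 (edgeR). Slc16a6 was the 1 monocarboxylate carrier called, at 2.93, 3.38, 3.78, 4.08 and 4.22 RPKM in HOM and at 9.14, 9.801 and 12.5 RPKM (lowest, median, highest) in HET DN3, without overlap (log2 fold change -1.45, SE 0.11, adjusted p = 4.66e-09, edgeR). Of 29 amino acid carriers 4 were higher and 2 lower, 20.7% of the class beside 24.9% of all genes. However, 3 of the higher genes (Slc7a3, Slc6a19 and Slc15a1) had passed the level threshold through HOM only and 1 of the lower (Slc7a4) through WT DN3 only. Among those that passed in both, Slc38a9 was lower, and Slc43a1, which carries large neutral amino acids, rose 1.502-fold to 26.2 ± 3.35 RPKM.

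**Figure D4:**
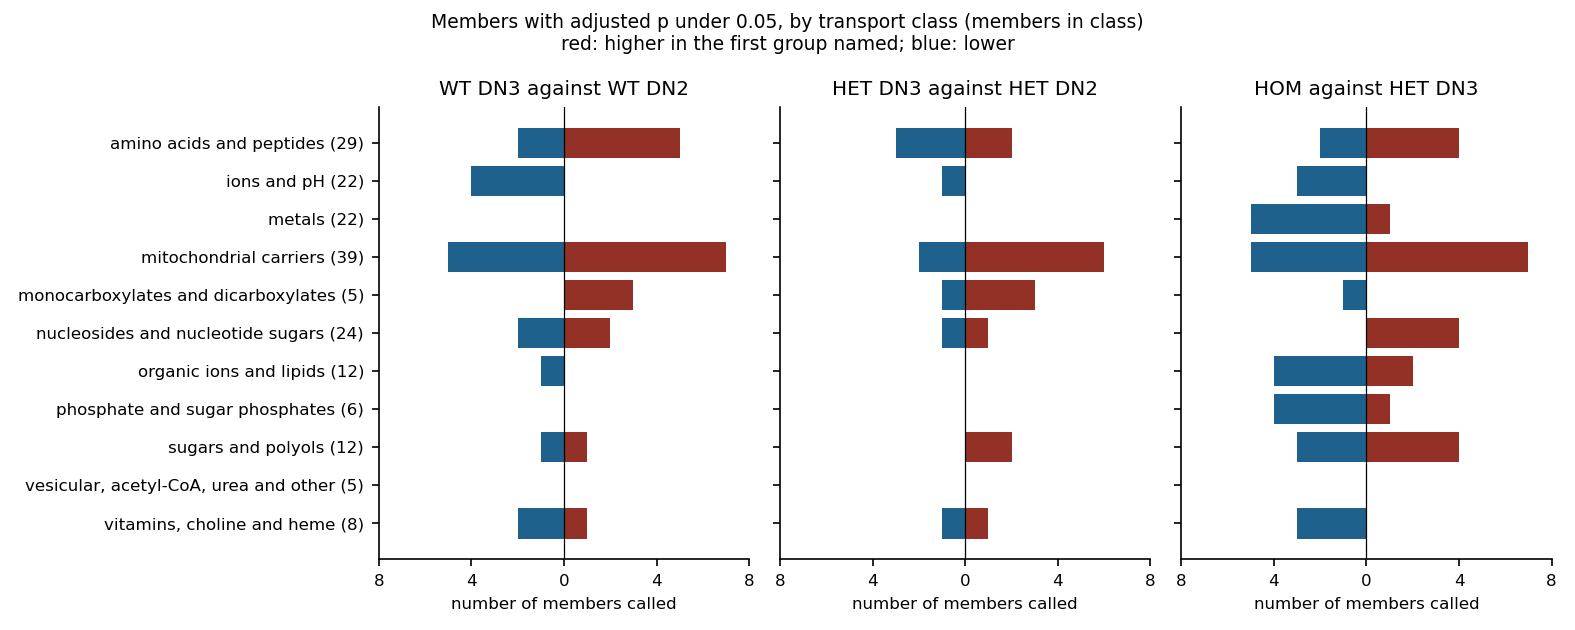
Number of solute carriers with an adjusted p under 0.05 (edgeR), by transport class, for 3 comparisons; bars to the right count genes higher and bars to the left genes lower in the first group named. No metal carrier was called in either DN2 to DN3 step in these fits without a block, against 5 lower and 1 higher between HOM and HET DN3. Over all genes tested, 21.3% were called in the WT step, 10.7% in the HET step and 24.9% between HOM and HET DN3.

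The carriers that rose with stage in both WT and HET are given in HOM as a description, because they had been chosen for low levels in the same WT DN2 libraries and high levels in the same HET DN3 libraries that serve as references here. Against HET DN3, 9 of the 12 did not pass, Slc25a3 and Slc35f2 were higher in HOM and Slc5a9 was lower. Of the 12, 10 were higher in HOM than in WT DN2, Slc5a9 was lower and Slc16a5 did not pass. Slc16a1 stood at 57.2, 62.8, 53.97, 69.8 and 41.97 RPKM in HOM and Slc25a5 at 533, 470.0, 472, 547 and 518 RPKM, ranges that overlap those of HET DN3. Slc7a5 stood at 46.9, 49.9, 50.2, 48.6 and 44.2 RPKM in HOM, above all WT DN2 libraries and below all WT DN3 libraries. Of the 5 that fell with stage, 4 were lower in HOM than in WT DN2 and Slc9a2 did not pass. HOM and WT DN2 differed in 92 of the 184 genes, 42 higher and 50 lower, which is 50.0% of them against 41.1% of all genes, of which 20.6% were higher and 20.4% lower.

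Between HOM and WT DN3, the pair of groups that chose the genes, differences are given as a description. The count past the same threshold was 83 of 184, 40 higher and 43 lower, beside 39.4% of all genes (20.2% higher and 19.2% lower), and the 15 genes that passed in HOM only were all higher and the 6 that passed in WT DN3 only all lower. Among genes of at least 5 RPKM without overlap, Slc5a9 (11.3-fold), Slc22a17 (8.36-fold), Slc39a3 (3.46-fold) and Slc37a1 (2.96-fold) were lowest in HOM relative to WT DN3. Slc45a3 (8.702-fold), Slc25a24 (7.88-fold), Slc25a53 (6.22-fold) and Slc37a3 (3.21-fold) were highest. Just inside the threshold lay Slc1a4 (1.05 RPKM in the higher group), Slc7a4 (1.06) and Slc9a2 (1.09), and just outside lay Slc22a15 (0.948), Slc16a7 (0.965) and Slc6a13 (0.966).

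Several genes entered through 1 library. Slc51a, a subunit of a bile acid exporter, stood at 5.25 RPKM in HOM library 1 and at 0.130 or less in every other Lck-Cre library, and it was at 0 in all 6 HET DN3 libraries. Slc7a3, a cationic amino acid transporter, and Slc16a3, a lactate exporter, were at 7.003 and 4.47 RPKM in HOM library 4, with means of 0.197 and 0.409 RPKM over the other 4. Slc1a4, Slc6a19 and Slc9a2 also fall below a mean of 1 RPKM without their highest HOM library. The difference of Slc6a19 between HOM and HET DN3 passed with all libraries (adjusted p = 0.0432) and did not pass without HOM library 1 (0.128) or HOM library 2 (0.096, edgeR). The differences of Slc51a and Slc7a3 between HOM and HET DN3 passed with all libraries (adjusted p = 0.0135 and 0.0336) and did not pass without HOM library 1 (0.178) and HOM library 4 (0.876), respectively (edgeR). The log2 fold change of Slc7a3 was 2.81 with all libraries and -0.18 without HOM library 4. Slc51a, Slc7a3 and Slc6a19 had passed the level threshold through HOM only. Their p-values are given to show the part of single libraries and are no support for a higher level in HOM.

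In the libraries with epithelial transcripts, 7 of the genes lay above every other library of the same group in HET DN2, HET DN3 and HOM alike: Slc6a6, Slc9a3r2, Slc12a2, Slc22a23, Slc26a2, Slc30a4 and Slc39a4. The sodium-potassium-chloride cotransporter Slc12a2 stood at 18.9 and 22.2 RPKM in HET DN2 libraries 1 and 2, against 2.396, 2.75 and 1.89 RPKM in the other 3. The zinc importer Slc39a4 stood at 19.2 and 7.08 RPKM in HET DN3 libraries 2 and 3, and at 3.26 RPKM or less in the other 4. Of all 7 epithelial markers, Clu reached 132 to 1276 CPM in these 6 libraries and at most 1.29 in the other 19, while Epcam was at 6.13 to 69.5 and at 12.2 to 49.4. The part of these transcripts in the levels of the 184 genes was not tested beyond leaving the libraries out.

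The Vav1-iCre table lists 2076 genes, all with a large HOM difference in these libraries, so its values are a description and support no test. It lists 31 of the 184 solute carriers, a share of 16.8%, beside 12.99% of the genes tested in the Lck-Cre fit. In all 31 the HOM libraries did not overlap the WT and HET libraries, with 12 higher and 19 lower in HOM. How many of all 2076 listed genes show no overlap was not computed, so this is not a result about the carriers. Slc5a9 stood at 1368 and 2467 scaled counts in WT, 705, 953, 731 and 1056 in HET and 22.4, 14.99 and 40.5 in HOM, a log2 ratio of HOM over controls of -5.55, the lowest of the 31. Its HET libraries lay below both WT libraries. Slc45a3 stood at 112 and 97.2 in WT, 373, 353, 332 and 233 in HET and 2213, 1933 and 1767 in HOM (log2 ratio 2.98), its HET libraries lying between WT and HOM. Slc29a1 stood at 3335 and 3159 in WT, 3408, 3134, 3194 and 3530.4 in HET and 11331, 9743 and 8975 in HOM (log2 ratio 1.60), with WT and HET overlapping.

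Of the 31 genes, 30 had the same sign in the Lck-Cre comparison of HOM with HET DN3. This is a description, and the share of equal signs over all genes listed in both series was not computed. Some of the 31 had passed the level threshold in HOM only (such as Slc25a43 and Slc35f5) or in WT DN3 only (such as Slc22a17 and Slc37a2). The rule that chose these genes bears on their sign in the Lck-Cre libraries. Slc9a2 was the exception, with a log2 ratio of -1.23 in the Vav1-iCre table and a log2 fold change of 0.93 (SE 0.50, adjusted p = 0.182, edgeR) in the Lck-Cre libraries, where its mean was 1.09 ± 0.873 RPKM in HOM (SD, n = 5). The metal carriers listed were Slc39a3 at -1.72, Slc30a4 at -1.41 and Slc41a3 at -1.18. The sugar phosphate carriers listed went both ways, with Slc37a1 at -1.32, Slc37a2 at -2.51 and Slc37a3 at 1.60. So did the mitochondrial carriers, with Slc25a24 at 1.78, Slc25a53 at 1.56, Slc25a43 at 3.12 and Slc25a29 at -1.91.

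**Figure D5:**
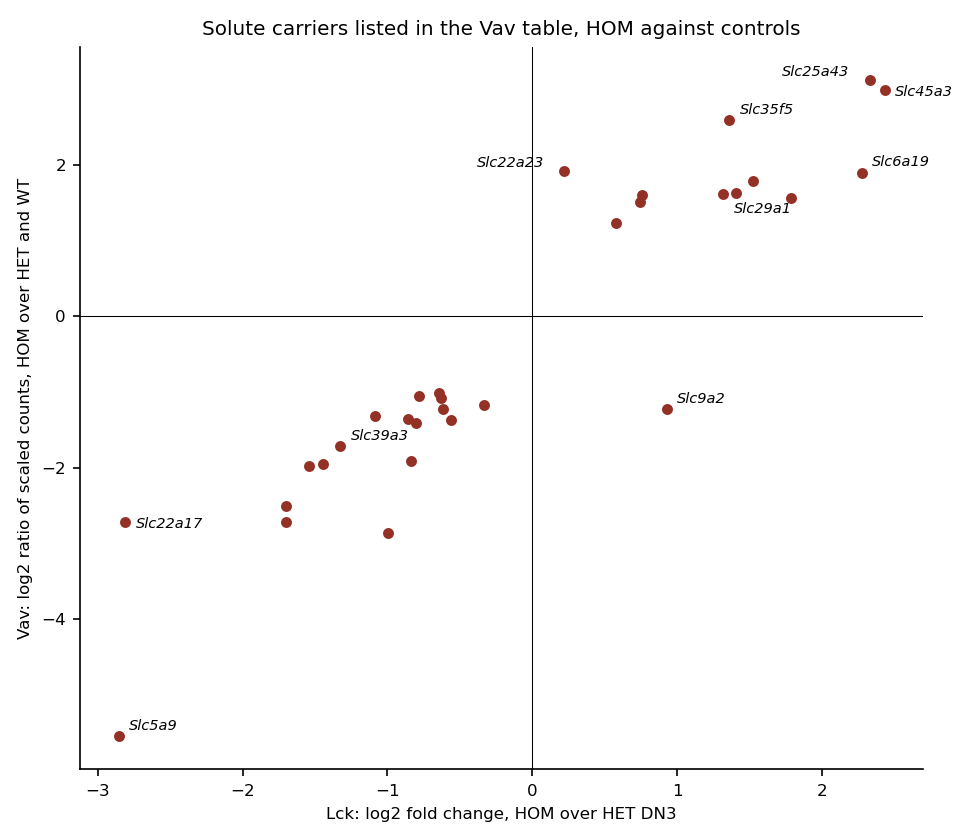
Log2 ratio of HOM over control libraries in the Vav1-iCre table (vertical axis, scaled counts) against the log2 fold change of HOM over HET DN3 in the Lck-Cre libraries (horizontal axis) for the 31 solute carriers listed in both. Each point is 1 gene. Of the 31, 30 lie in quadrants of equal sign, Slc5a9 is lowest on both axes, and Slc9a2 is the exception. Some of the genes had passed the level threshold in HOM only or in WT DN3 only, which bears on their sign on the horizontal axis.

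Enzymes that use what these carriers bring in were read from lists chosen by pathway. Of 16 glycolysis enzymes tested, 11 were higher and none lower in WT DN3 than in WT DN2, and 7 were higher and none lower in the HET step (median log2 fold change 0.54 and 0.33). These are shares of 68.8% and 43.8% higher, beside 11.2% and 5.93% of all genes. Lactate dehydrogenase Ldha rose from 295 to 549 RPKM in WT (log2 fold change 0.96, SE 0.10, adjusted p = 1.13e-05, edgeR) and from 298 to 468 RPKM in HET. Of 15 enzymes of glutamine, serine and polyamine metabolism, 8 were higher and 1 lower in each step, 53.3% and 6.67% of the list, beside 11.2% and 10.1% of all genes in WT and 5.93% and 4.8% in HET. Among those higher were the serine hydroxymethyltransferase Shmt2 in WT (log2 fold change 0.97, SE 0.12, adjusted p = 2.94e-05, edgeR) and ornithine decarboxylase Odc1 in HET (log2 fold change 0.81, SE 0.12, adjusted p = 0.000363, edgeR). Between HOM and HET DN3, 1 glycolysis enzyme was higher and 3 were lower, 25% of the list beside 24.9% of all genes. Lactate dehydrogenase Ldhb fell from 57.3 to 22.8 RPKM (log2 fold change -1.31, SE 0.14, adjusted p = 1.92e-07, edgeR).

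Of 21 genes of amino acid sensing and the growth kinase complex mTORC1, 3 were higher and 2 lower in HOM than in HET DN3, 23.8% of the list and near the 24.9% of all genes. The GTPase subunit Rragd stood at 3.72, 4.57, 3.06, 4.66 and 2.55 RPKM in HOM, all above 1.41 RPKM, the highest HET DN3 library (log2 fold change 1.995, SE 0.26, adjusted p = 4.24e-06, edgeR). Of 17 regulators of nutrient uptake 2 were higher and none lower in HOM, 11.8% of the list. They were Tfeb, a transcription factor of lysosomal genes, which rose from 0.973 to 5.05 RPKM (log2 fold change 2.39, SE 0.42, adjusted p = 0.000164, edgeR), and Myc, which rose from 153 to 190.2 RPKM (log2 fold change 0.34, SE 0.09, adjusted p = 0.00733, edgeR). Of 20 transporters and partners with other symbols, 2 were higher and 3 lower, 25% of the list and near the share of all genes, among them embigin (Emb), a partner of monocarboxylate transporters, which rose from 26.6 to 50.5 RPKM (log2 fold change 0.95, SE 0.15, adjusted p = 3.88e-05, edgeR), and the mitochondrial carrier Ucp2, which fell from 399 to 303 RPKM (log2 fold change -0.38, SE 0.10, adjusted p = 0.00828, edgeR).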

How the data were processed

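RNA-seq of sorted double-negative thymocytes was analysed in 34 libraries: 25 with Lck-Cre and 9 with Vav1-iCre. Per the submitters' processing notes, the build was mm9; the tools named there, with no role given, include HOMER, edgeR 3.6.8, RSEM 1.2.25, STAR 2.4.0 and Trimmomatic. Per the file headers, the deposited values are whole-number counts of reads per gene, although the Lck-Cre table is named for RPKM; RPKM here was computed from them, the deposited gene lengths and the column totals. In 10 columns (WT DN2 and HET DN3) the 26 values of Marc, March and Sept genes are missing and later values stand in the wrong row. They were moved back by gene order, which raised the correlation of the solute carriers with the other libraries from between 0.0472 and 0.0691 to between 0.975 and 0.996; 114 genes of unsettled order were left out. Per-sample columns left unused numbered 0.

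Counts were tested with edgeR 4.0.16 (R 4.3.3; quasi-likelihood test, TMM, two-sided, Benjamini-Hochberg over 12218 genes with a mean of at least 1 RPKM in 1 Lck-Cre group) in 1 fit of 5 groups, and the script was tested on simulated counts. The deviations of same-numbered WT DN2 and WT DN3 libraries were correlated (r of 0.171, 0.267, 0.434 and 0.609 for numbers 1 to 4). For number 1 another WT DN2 library correlated at least as well. A fit with the number as a block is given beside that comparison. The pairing comes from these correlations and not from the labels. DESeq2 1.42.0, limma 3.58.1 and the other alternatives are in the closing section. The Vav1-iCre table lists 2076 genes with none near no change; its counts were scaled by TMM within controls and within HOM, and the empty gap between -0.988 and 0.988 (log2) was centred on 0. The strand setting is not given in the sources used here, so overlapping genes cannot be told apart. Genes named are Slc5a9, up to 8 per direction with the largest change among those called with at least 5 RPKM in the higher group (for HOM against WT DN3, those without overlap), the highest in level overall and per class, those next to the threshold, and up to 3 per list; 1 gene that this rule names is not reported here. Genes outside this rule (the non-transporters, those resting on 1 library, those tracking epithelial transcripts, Slc15a1, Slc15a2, Slc25a29, Slc25a43, Slc35f5, Slc37a2, Slc38a9, Slc41a3 and others so described) were named after their values were seen. The solute carriers, lists and rules were all chosen with earlier results of these data known.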

Additional observations from a re-analysis of the deposited data

Results flagged for a closer look

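Of 228 pairs of a named solute carrier and a group of 4 to 6 libraries, 20 held a library set apart from the rest of its group by a gap that Dixon's test places beyond its 95% critical value. Chance flags about 1 in 20 such groups. Levels below are RPKM in the Lck-Cre libraries unless stated otherwise.

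HOM library 4 stood apart for 4 genes. It held the glucose transporter Slc2a3 at 22.08 against 10.6 to 11.8 in the other 4 libraries and the glutamine transporter Slc38a2 at 72.37 against 61.8 to 64.0. It was the lowest for the folate carrier Slc19a1, at 15.75 against 21.3 to 22.8, and for the neutral amino acid transporter Slc43a1, at 20.28 against 26.6 to 28.1. HOM library 3 was the highest for Slc25a27, at 4.088 against 3.34 to 3.44.

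WT DN2 library 2, which held mature T-cell transcripts, was the highest for Slc25a27, at 7.037 against 5.25 to 5.45, and for Slc37a3, at 4.856 against 1.89 to 2.23. WT DN2 library 1 was the highest for Slc43a3, at 35.4 against 27.6 to 28.5. HET DN3 library 1, with mature T-cell and erythroid transcripts, was the highest for Slc26a11, at 10.17 against 2.78 to 4.88, and the lowest for the heme transporter Slc48a1, at 23.58 against 31.8 to 36.3.

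Among the libraries with epithelial transcripts, HET DN2 library 2 was the highest for Slc25a36, at 20.17 against 13.6 to 15.1, for Slc25a53, at 8.4 against 2.75 to 3.35, and for Slc26a11, at 9.831 against 5.88 to 6.89. HET DN3 library 2 was the highest for Slc37a3, at 7.885 against 2.702 to 4.09. HET DN3 library 6 was the highest for Slc35e3, at 14.25 against 10.8 to 11.98.

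In WT DN3, library 5 held the highest sum of the early-stage markers Kit and Cpa3. It was the highest for Slc25a24, at 2.677 against 0.572 to 1.13, and the lowest for Slc16a10, at 18.06 against 21.4 to 22.04. WT DN3 library 2 was the lowest for Slc15a4, at 12.19 against 14.3 to 14.8. In the Vav1-iCre table, HET library 4 was the highest for Slc26a11, at 355.0 scaled counts against 194 to 219.7, and the lowest for Slc30a4, at 292.6 against 423 to 441.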

How the results depend on the processing

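No called gene among those named by rule changed direction under any alternative run; outside them, Slc7a3 went from a log2 fold change of 2.81 to -0.18 between HOM and HET DN3 without HOM library 4. For HOM against HET DN3 the count of 53 genes was 27 with the replicate block and 41 to 55 without single libraries. For HET DN3 against WT DN3 the count of 7 was 4 with no filter on low values, 4 with limma on log2(RPKM + 1), 26 with DESeq2, 1 with only the groups compared, 2 without the epithelial libraries, 0 without these and the mature T-cell libraries, and 0 to 22 without single libraries. For HET DN2 against WT DN2 the count of 0 was 2 with DESeq2. For WT DN3 against WT DN2 the count of 36 was 71 with only the groups compared, 91 with the replicate block and 26 to 35 without single libraries. For HET DN3 against HET DN2 the count of 24 was 9 with only the groups compared, 2 with the replicate block and 19 to 30 without single libraries. The cause of these shifts was not tested. In the WT block fit 47.9% of all genes passed, while for the other alternatives in this section the share of all genes is not given here. How far a shift is particular to the solute carriers can therefore not be read from these counts. The count for HOM against WT DN2 ran from 77 to 96 and that for HOM against WT DN3 from 68 to 82 without single libraries. By the same measure the replicate numbers did not pair all libraries in the other comparisons. For HET DN3 and HET DN2 the correlations ran from -0.697 to 0.736, and for HOM and HET DN3 from -0.006 to 0.746. HOM libraries 2 and 3, which hold epithelial transcripts, did correlate best with HET DN3 libraries 2 and 3, which hold them too (r of 0.746 and 0.636). Of the named genes in HOM against HET DN3, 5 of 160 results lost the call under alternatives that keep every replicate or leave out a kind of library, and 3 of 176 without single libraries. The same tallies were 20 of 50 and 27 of 55 for HET DN3 against WT DN3, 34 of 150 and 17 of 165 for HET DN3 against HET DN2, 0 of 160 and 17 of 144 for WT DN3 against WT DN2, and 0 of 160 and 0 of 144 for HOM against WT DN2. A threshold of 0.5 or 2 RPKM would give 204 or 166 genes, and leaving out the epithelial libraries 187. Counting error and the lowly expressed genes limit what can be seen near 1 RPKM.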
